A study of Mus musculus with 8 samples.

Results

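The isoforms described here are those that the deposited isoform names annotate as targets of nonsense-mediated decay (NMD). Membership was set by that annotation alone, without any measured value, although this class was chosen with earlier results of these data known. The isoforms numbered 5843 of the 122968 listed, in 3745 of 49585 genes. Each was followed as a level, in normalized counts, and as a share, the percentage of the summed normalized counts of its gene. The silenced condition, siL-DHX15-LEC (n = 4 libraries), was a C57BL/6 mouse liver sinusoidal endothelial cell line, made from primary hepatic endothelial cells with SV40, that carried a lentiviral Tet-On shRNA against DHX15, an RNA helicase of the spliceosome. The control, wild-type LEC (n = 4), was the same SV40 line labelled as untreated. No library of cells with the vector alone, or with doxycycline alone, was analysed here, so silencing, vector and inducer cannot be told apart. The study describes its replicates as independent, while the labels do not tie the libraries to separate cultures, so p-values measure the spread between these libraries, part of which may be technical.

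The libraries held 77335734 to 149258495 reads in siL-DHX15-LEC and 118830467 to 152045693 in wild-type LEC, and the smallest was siL-DHX15-LEC replicate 1. The conditions were sequenced in different lanes (lanes 5 and 2 of the 2 flow cells for siL-DHX15-LEC, lanes 4 and 1 for wild-type LEC), and the effects of lane and of silencing cannot be told apart. Summed over its isoforms, Dhx15 had 7956 to 10051 normalized counts in siL-DHX15-LEC and 26430 to 28006 in wild-type LEC. Of the endothelial markers, Kdr was present at 744 to 800 normalized counts in siL-DHX15-LEC and 682 to 815 in wild-type LEC, while Cdh5 and the sinusoidal markers Lyve1 and Stab2 stayed under 10 in every library. The summed endothelial list (10 genes) had 2632 to 2821 normalized counts in siL-DHX15-LEC and 2891 to 3096 in wild-type LEC, and the sinusoidal list (7 genes) 250 to 318 in siL-DHX15-LEC and 332 to 391 in wild-type LEC. Stellate cell and fibroblast genes summed to 45928 to 47483 in siL-DHX15-LEC and 54263 to 55050 in wild-type LEC, and mesothelial genes to 78095 to 85058 in siL-DHX15-LEC and 65923 to 73003 in wild-type LEC. None of these 4 sums overlapped between conditions, while leukocyte and lymphatic lists overlapped. Over all 16497 gene totals tested, 18.4% were called higher and 14.8% lower. Gene by gene, 1 endothelial gene was called higher and 2 lower, and 0 sinusoidal genes higher and 1 lower. Of the 7 stellate cell and fibroblast genes 1 was higher and 2 lower. The mesothelial sum was higher although 1 of its 4 genes was called higher and 2 lower. Hepatocyte transcripts moved with condition: Alb had at most 1.89 normalized counts in siL-DHX15-LEC and 522 to 658 in wild-type LEC, 17 of the 20 listed hepatocyte genes were lower, and their summed level was 7174 to 7865 in siL-DHX15-LEC and 9782 to 10533 in wild-type LEC. The only NMD isoform of these 20 genes was tested and called neither in level nor in share. In bulk samples fewer cells of a type and less RNA per cell cannot be told apart, nor whether such transcripts came from other cells or from the line itself, and the part of these marker lists in the results below was not tested.

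NMD is the cytoplasmic pathway that degrades messenger RNAs whose stop codon lies well upstream of a splice junction. The junction leaves behind an exon junction complex, and the helicase UPF1, with UPF2, UPF3 and the SMG proteins, triggers decay when a ribosome terminates before it. Such isoforms arise when a frame-shifting exon is skipped or when an additional exon with a stop codon is included. Several splicing factors, the SR proteins and hnRNPs foremost, keep such an exon (a poison exon) in their own genes and lower their own protein output by including it. The annotation used here rests on gene structure and does not show that a given transcript was degraded. Of the 5843 isoforms, 5725 were found as NMD transcripts in GENCODE M21, and of the 5650 of these with an annotated stop codon 5619 had it at least 50 bases upstream of the last junction.

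The sequences below are the premature reading frames that 8 of the isoforms named further on read from an exon that the most abundant coding isoform of the gene skips. They are shown because the stop codon in them is what makes these isoforms predicted NMD targets. Each runs 5′ to 3′ from the first base of the additional exon, the stop codon is in capitals, and the bases are from the transcripts of GENCODE M21 on GRCm38.
Nfat5-001: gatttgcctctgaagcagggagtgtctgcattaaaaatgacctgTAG
2410004B18Rik-002: cttctccccgagaccccttcccttTGA
Alkbh1-002: gaattttccatccttggagaaTGA
Gm21992-004: gtaattggcgttccgggTAA
Srsf3-002: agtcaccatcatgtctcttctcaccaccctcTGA
Srsf6-002: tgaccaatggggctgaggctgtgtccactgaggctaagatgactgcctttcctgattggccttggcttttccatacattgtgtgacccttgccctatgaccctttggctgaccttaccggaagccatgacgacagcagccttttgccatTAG
Srsf11-008: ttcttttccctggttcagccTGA
Rbm39-025: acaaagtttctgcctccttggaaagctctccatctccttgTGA
They lie at chr8:107338295-107338341 (plus strand), chr3:145938543-145938569 (plus), chr12:87441757-87441780 (minus), chr19:4793990-4794009 (minus), chr17:29039454-29039487 (plus), chr2:162932815-162932966 (plus), chr3:158024209-158024231 (minus) and chr2:156174126-156174168 (minus), in the order printed. The additional exons were 62, 127, 138, 194, 456, 268, 109 and 72 bases long in the same order, and the stop codon ended 20 to 152 bases into them. Only the 138, 456 and 72 base exons have a length that is a multiple of 3, so for the other 5 inclusion would shift the frame even without the stop codon. For Srsf3-002 the transcript version in the annotation differed from the deposited one.

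Of the 5843 isoforms, 769 were listed at 0 in all 8 libraries, 3238 averaged 10 normalized counts or more and were tested for level, and 3205 in 2253 genes were tested for share. The 33 isoforms tested for level only had too little in the other isoforms of their gene. Most were minor products. The median tested isoform made up 2.60% of its gene in siL-DHX15-LEC and 2.39% in wild-type LEC, and only 97 in siL-DHX15-LEC and 95 in wild-type LEC exceeded 50%. Summed over all genes that have one, the NMD isoforms held 9.06, 8.93, 9.05 and 8.93% of the counts of these genes in siL-DHX15-LEC, against 8.43, 8.37, 8.83 and 8.87% in wild-type LEC. All 4 silenced libraries lay above all 4 wild-type libraries, by a small margin, and the means were 8.99% ± 0.0737 in siL-DHX15-LEC and 8.63% ± 0.261 in wild-type LEC (SD, n = 4 each), a difference of 0.365 percentage points. Without the 10 genes of highest NMD level the difference was 0.212 points. With every host gene given the same weight, the mean share was 10.3 to 10.8% in siL-DHX15-LEC and 10.1 to 10.2% in wild-type LEC, again without overlap. Of all counts in the library, NMD isoforms took 2.05 to 2.10% in siL-DHX15-LEC and 1.96 to 2.03% in wild-type LEC. No test was made of these sums.

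**Figure D1:**
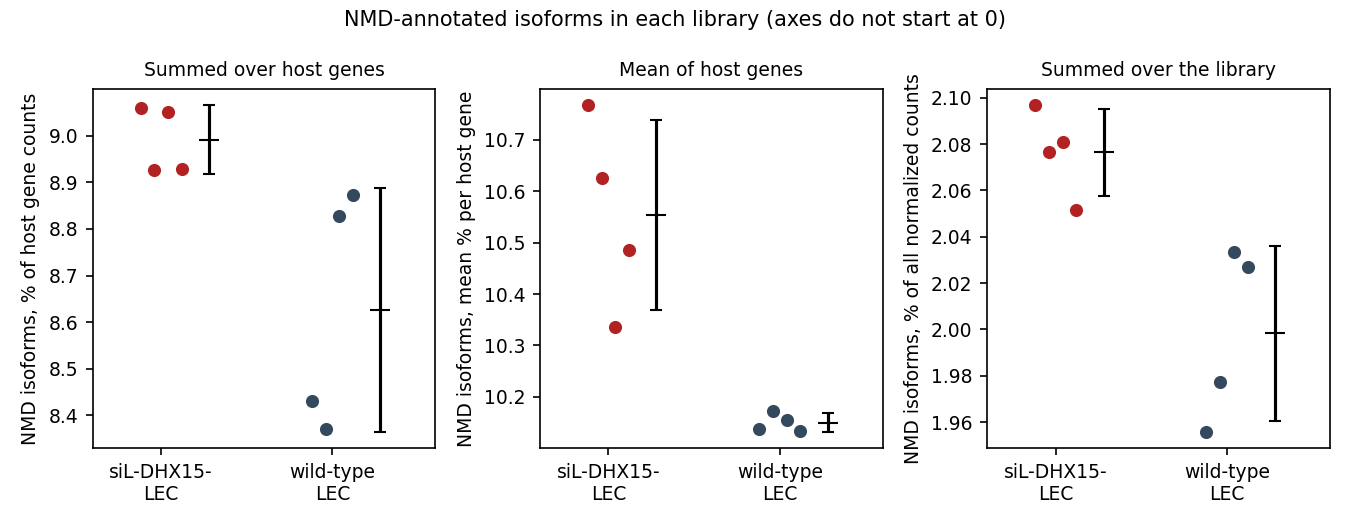
The 3 summary measures of NMD-annotated isoforms by library (points, 4 siL-DHX15-LEC left and 4 wild-type LEC right, mean and SD beside them), each on its own percent axis that does not start at 0. In all 3 measures the silenced libraries lie above the wild-type libraries, for example at 8.93 to 9.06% against 8.37 to 8.87% of host gene counts.

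Tested one by one with limma on the log2 ratio of an isoform to the rest of its gene, with Benjamini-Hochberg adjustment over all 43706 isoforms of the table, 77 of the 3205 NMD isoforms had a higher share in siL-DHX15-LEC at an adjusted p under 0.05 and 19 had a lower one. Over all isoforms tested, 1.79% were called higher and 1.77% lower. Among NMD isoforms the shares called were 2.40% higher and 0.593% lower, so that 80.2% of the NMD calls were upward, against 50.3% of the calls over all isoforms. The median log2 change in the ratio was 0.07 for NMD isoforms and -0.03 for all isoforms, and 56.7% of NMD isoforms and 47.1% of all isoforms lay above 0. The shares of 287 NMD isoforms (8.95%) were higher in all 4 silenced than in all 4 wild-type libraries, against 6.41% of all isoforms, and those of 115 (3.59%) were lower in all, against 7.14% of all isoforms. Isoforms annotated as retained introns leaned the opposite way, with 56 of 10374 called higher, 80 called lower and a median of -0.13. Those annotated as processed transcripts had 54 of 4731 called higher and 34 lower, 61.4% of their calls upward, with a median of -0.00094. Protein-coding isoforms had a median of -0.004 with 585 calls higher and 635 lower of 24753.

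The counts of calls moved with every library. Leaving out each library in turn gave 28 to 51 isoforms with a higher share and 3 to 12 with a lower one (28 without siL-DHX15-LEC replicate 2, and 3 without wild-type LEC replicate 3 or 4). Over all isoforms the calls dropped too, to 317 to 526 higher and 276 to 548 lower. Of the 77 rises 23 were called in all 8 of these fits, and of the 19 falls 3 were (B4galt2-004, Bcl7c-002 and Cbx1-003), while all 77 and all 19 kept their sign. The diffSplice method of limma sets an isoform against the mean log change of the other isoforms of its gene. With it 96 NMD isoforms were higher and 46 lower, of which 25 and 3 were among the 77 and the 19. These were 3.00% higher and 1.44% lower, against 1.61% and 1.48% of all isoforms. The shortage of falls among NMD isoforms was thus not seen with diffSplice.

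**Figure D2:**
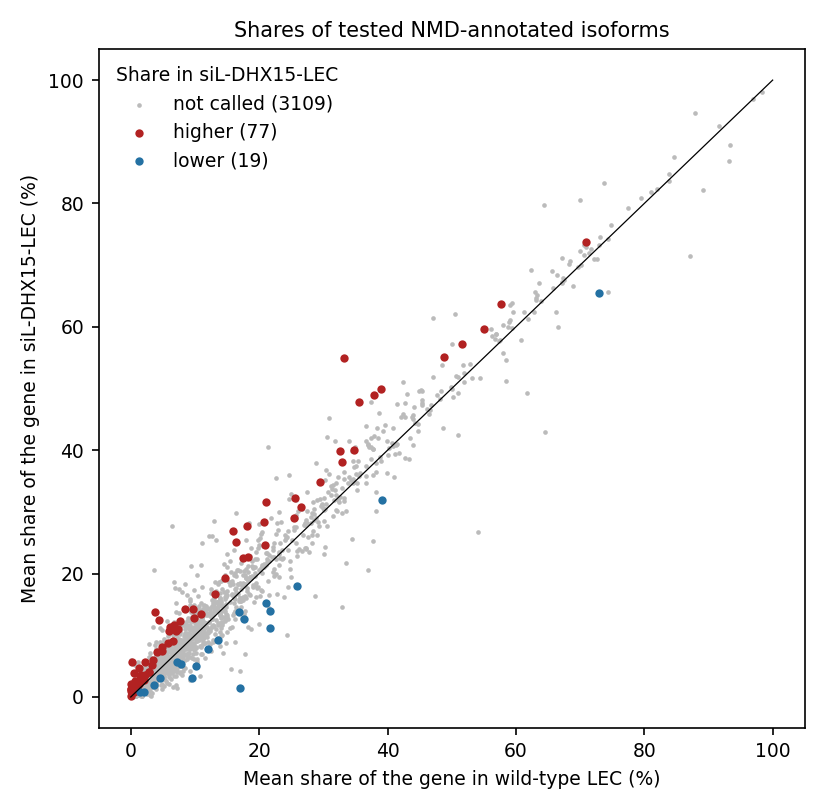
Mean share of the gene (%) of the 3205 tested NMD isoforms in siL-DHX15-LEC (vertical) against wild-type LEC (horizontal), with the line of equal shares. The 77 isoforms called higher lie above the line, the 19 called lower lie below it, and the others were not called.

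In level, 203 of 3238 NMD isoforms were higher in siL-DHX15-LEC and 46 were lower (limma on log2 of the normalized count plus 1, adjusted p under 0.05). Over all 50198 isoforms tested, 6.61% were higher and 3.83% lower. Of the NMD isoforms 6.27% were higher and 1.42% lower, with a median log2 change of 0.08 against -0.02 for all. After rescaling every library to the same total, the calls were 149 higher and 77 lower, and the upward part of the NMD calls was 65.9% in place of 81.5% (40.0% in place of 63.3% over all isoforms). The median log2 change was then 0.0098 for NMD isoforms and -0.085 for all. The levels of 340 NMD isoforms (10.5%) lay above the wild-type range without overlap, against 10.3% of all isoforms, and those of 109 (3.37%) below it, against 7.82%. Of the 203 isoforms with a higher level, 120 belonged to a gene whose total was also higher, 69 to a gene whose total was not called and 14 to a gene whose total was lower, and 62 had a higher share as well. Over all 16497 genes tested, 18.4% had a higher and 14.8% a lower total. Of the 77 isoforms with a higher share, the gene total was higher for 16, lower for 21 and not called for 40. The most abundant coding isoform of the gene was lower in level for 25 of these 77 and higher for 5. For the 19 isoforms with a lower share, that coding isoform was higher in level for 6 and not called for 13. Over all 28655 protein-coding isoforms tested for level, 9.41% were higher and 5.46% lower. The coding isoform is part of the rest of the gene in the share test, so opposite changes in it are partly built into the choice of these isoforms.

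The isoforms differed in how the premature stop codon arises. Set against the most abundant coding isoform of the gene, the stop codon lay in exon sequence shared with it, in another position, for 1867 tested isoforms, in sequence that only the NMD isoform includes for 1132, and at the same stop codon, followed by a further junction, for 141. The first of these had 42 calls higher and 9 lower (2.25% and 0.482%), the second 31 and 5 (2.74% and 0.442%), and the third 3 and 4. Within the second class, where the stop codon lay in a separate additional exon as in the sequences printed above, 26 of 669 isoforms were higher and 1, Gm21992-004, was lower (3.89% and 0.149%, against 1.79% and 1.77% of all isoforms), and the median log2 ratio was 0.15, with 63.5% above 0. Where it lay in a lengthened exon or in a joined intron, 5 of 453 were higher and 4 lower, and the median was -0.02. The split by exon was made after the data had been seen and was not tested. Leaving out each library in turn left 9 to 20 isoforms of the separate exon class higher and 0 to 2 lower (9 higher without siL-DHX15-LEC replicate 2), with a median of 0.12 to 0.17. The calls in this class were 30 higher and 10 lower of 669 by diffSplice, and 29 and 3 of 669 on the arcsine scale. Among the 379 that averaged 50 or more they were 32 and 4. Over all isoforms these settings called 1.61% higher and 1.48% lower, 2.17% and 2.15%, and 4.05% and 4.12%, in the same order. Relative to any coding isoform of the gene, in place of the most abundant one, the calls were 46 higher and 9 lower of 1921 for shared sequence, 25 and 4 of 1014 for included sequence and 5 and 5 of 210 for the same stop codon. In the shared class, isoforms that skip at least 1 whole coding exon had 15 calls higher and 5 lower of 890, and those that skip none had 27 and 4 of 977.

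**Figure D3:**
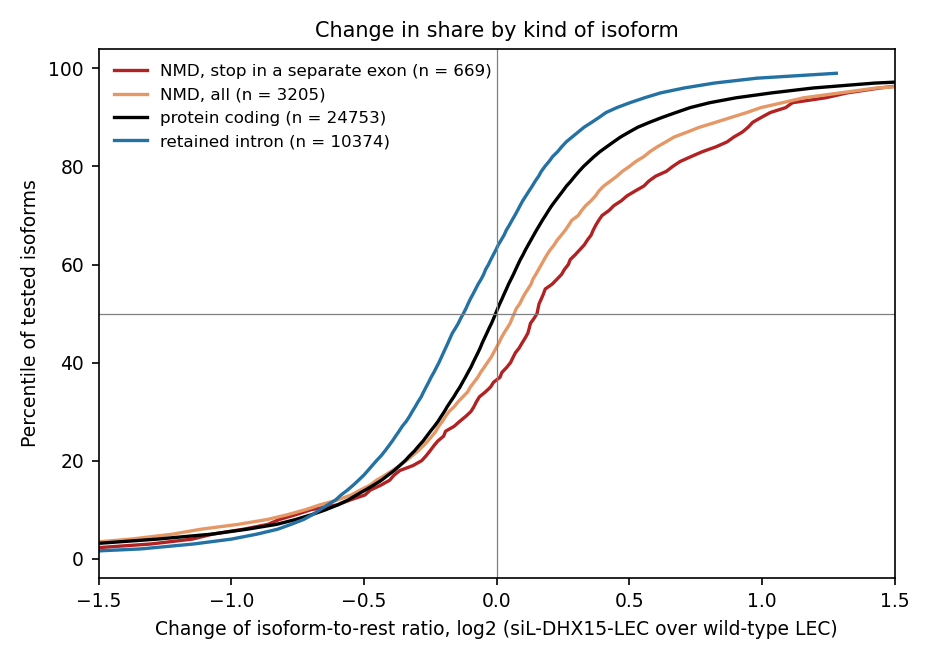
Cumulative distribution of the change in the ratio of an isoform to the rest of its gene (log2, siL-DHX15-LEC over wild-type LEC, horizontal) against the percentile of tested isoforms (vertical), for 669 NMD isoforms with the stop codon in a separate exon, all 3205 NMD isoforms, 24753 protein-coding isoforms and 10374 retained introns. At the 50th percentile the curves pass 0.15, 0.07, -0.004 and -0.13.

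The 76 with a higher share that matched the annotation had a median length of 1574 bases, the 18 with a lower share 3664 bases, and all 3156 tested and matched 1600 bases. Of the 1052 longest isoforms (2401 bases or more) 18 were higher and 15 lower, with a median log2 ratio of 0.01, and of the 1054 shortest (up to 898 bases) 21 were higher and 1 lower, with a median of 0.11. The part of length in the result was not tested. The distance of the stop codon from the last junction had a median of 393 bases in those with a higher share and 395 bases in all tested, and the codon was TGA in 38, TAA in 20 and TAG in 18 of the 76. Calls were more frequent among abundant isoforms, with 52 higher and 12 lower of the 1052 that averaged 196 normalized counts or more, against 8 and 2 of the 1052 that averaged up to 44.3.

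The largest rise in share was that of Nsun3-002 (chr16:62732444-62786777), an isoform of the gene for a mitochondrial tRNA cytosine methyltransferase. It made up 62.3, 55.9, 48.4 and 53.5% of Nsun3 in siL-DHX15-LEC, against 32.9, 42.2, 24.0 and 33.7% in wild-type LEC. The conditions did not overlap, and the coding isoform Nsun3-001 held 43.3% on average in siL-DHX15-LEC and 65.5% in wild-type LEC. The predicted NMD target exceeded it in 3 of the 4 silenced libraries, and in siL-DHX15-LEC replicate 3 Nsun3-001 was ahead at 50.4%. The log2 change in the ratio was 1.32 ± 0.27 (SE, adjusted p = 0.0432, limma). In level Nsun3-002 did not pass (341 to 438 normalized counts in siL-DHX15-LEC and 207 to 383 in wild-type LEC, log2 0.49, adjusted p = 0.133), whereas Nsun3-001 was lower (log2 -0.86, adjusted p = 0.0111). The share call was kept in only 1 of the 8 fits with a library left out (adjusted p 0.0426 to 0.106).

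Nfat5-001 (chr8:107293470-107379517) came next. Nfat5 encodes the transcription factor of the response to osmotic stress. The isoform, with the 62-base exon that carries its TAG, held 52.8, 47.5, 48.1 and 43.1% of the gene in siL-DHX15-LEC, against 34.6, 34.0, 37.8 and 35.8% in wild-type LEC. Every silenced library exceeded every wild-type library (log2 ratio 0.74 ± 0.12, adjusted p = 0.0198), and the coding isoform Nfat5-202 was lower in level, at 3888 normalized counts in siL-DHX15-LEC and 5739 in wild-type LEC (adjusted p = 0.0115). The level of Nfat5-001 itself overlapped between conditions.

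Tk2-002 (chr8:104226698-104248551), from the gene for mitochondrial thymidine kinase, skips a coding exon of 74 bases. It held 46.7, 46.1, 51.2 and 51.8% of Tk2 in siL-DHX15-LEC and 34.5, 41.0, 39.2 and 37.0% in wild-type LEC (log2 ratio 0.65 ± 0.12, adjusted p = 0.0318). Abhd5-002 (chr9:122351730-122379825), from the gene for a coactivator of lipid droplet lipolysis, held 49.8, 51.5, 48.6 and 49.9% in siL-DHX15-LEC and 37.0, 36.5, 42.2 and 40.2% in wild-type LEC (log2 ratio 0.65 ± 0.10, adjusted p = 0.0159). Neither gene's libraries overlapped between conditions, and both NMD isoforms were also higher in level (log2 0.50, adjusted p = 0.00231, for Tk2-002 and log2 0.39, adjusted p = 0.0116, for Abhd5-002). The most abundant coding isoform held 44.6% of Tk2 and 39.6% of Abhd5 in siL-DHX15-LEC, against 56.8 and 49.3% in wild-type LEC. The totals of both genes were not called.

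2410004B18Rik-002 (chr3:145938042-145944827), with the 127-base exon, held 27.3, 29.5, 25.1 and 25.8% in siL-DHX15-LEC, against 16.7, 16.5, 14.6 and 16.2% in wild-type LEC. This rise was larger than the spread within either condition and was called in all 8 fits with a library left out (log2 ratio 0.95 ± 0.10, adjusted p = 0.00443). The coding isoform 2410004B18Rik-001 was lower at 1054 normalized counts in siL-DHX15-LEC and 1618 in wild-type LEC. Alkbh1-002 (chr12:87428080-87443836), from the gene for a dioxygenase that demethylates tRNA, held 34.0, 33.4, 29.9 and 29.5% in siL-DHX15-LEC and 22.5, 21.2, 22.9 and 17.7% in wild-type LEC (log2 ratio 0.80 ± 0.13, adjusted p = 0.0198). Here the whole gene was higher too (log2 0.27, adjusted p = 0.000937), while its coding isoform Alkbh1-001 did not pass, at 834 normalized counts in siL-DHX15-LEC and 860 in wild-type LEC (adjusted p = 0.817).

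Dusp12-003 (chr1:170874189-170885407) had the smallest adjusted p for share among the 20 largest changes. Dusp12 encodes a dual specificity phosphatase, and the isoform skips a 119-base coding exon. Its share was 16.3, 12.4, 14.3 and 11.8% in siL-DHX15-LEC and 3.73, 3.73, 3.14 and 4.49% in wild-type LEC, and its level was 333, 263, 293 and 249 normalized counts in siL-DHX15-LEC and 82.4, 75.4, 62.6 and 97.8 in wild-type LEC. Both measures were far outside the spread of the other condition (log2 ratio 2.00 ± 0.17, adjusted p = 0.00168, and log2 level 1.83, adjusted p = 0.000772), and the call held in all 8 fits with a library left out. The total of the gene was 2082 normalized counts in siL-DHX15-LEC and 2101 in wild-type LEC. The isoform shares exon positions with antisense genes (Gm26620 and Gm9929) on the other strand, and whether strand was used in counting the stranded libraries is not given in the sources used here.

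Ndc1, the gene for a transmembrane nucleoporin, had 2 NMD isoforms that rose. Ndc1-003 (chr4:107367880-107414333), which skips a 121-base exon, held 30.5, 26.3, 28.1 and 25.7% in siL-DHX15-LEC and 17.3, 16.8, 18.5 and 20.0% in wild-type LEC (log2 ratio 0.78 ± 0.10, adjusted p = 0.00918). Set by diffSplice against the mean log change of the other isoforms of Ndc1, which include Ndc1-002, its change was -1.34 and did not pass, so the direction depends on the measure. Ndc1-002 (chr4:107367915-107416323), which skips a 51-base exon, had 985, 804, 790 and 661 normalized counts in siL-DHX15-LEC and 37.1, 2.38, 4.18 and 56.3 in wild-type LEC. This was the largest rise in level among NMD isoforms with a mean of at least 50 (log2 5.84, adjusted p = 0.00483), and it took the share to 5.60% in siL-DHX15-LEC, against 0.174% in wild-type LEC. The coding isoform Ndc1-001 was lower, at 66.1% of the gene in siL-DHX15-LEC and 81.1% in wild-type LEC, and the gene total was not called (adjusted p = 0.700). Naa25 and Pcnp were the only other genes with 2 NMD isoforms of higher share, among 648 with at least 2 tested, and no gene had NMD isoforms called in both directions.

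The other rises of this size were 0610037L13Rik-004, at 24.2 to 25.8% in siL-DHX15-LEC and 15.3 to 17.5% in wild-type LEC (log2 ratio 0.78 ± 0.09, adjusted p = 0.00559), and Plekhm3-002, at 9.92 to 15.1% in siL-DHX15-LEC and 2.14 to 6.19% in wild-type LEC (log2 ratio 1.75 ± 0.38, adjusted p = 0.0494). Plekhm3-002 keeps the stop codon of the coding isoform and has a junction after it. Of the 10 largest rises, 4 were called in all 8 fits with a library left out (Dusp12-003, 0610037L13Rik-004, 2410004B18Rik-002 and Ndc1-003), Plekhm3-002 in none (adjusted p 0.0598 to 0.122), and the other 5 in 1 to 7. None changed sign in these fits.

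The largest fall in share was that of Slc2a9-004 (chr5:38349639-38480158), from the gene for a urate transporter, which skips a 188-base exon. It was listed at 0 in 3 silenced libraries and at 5.82% in siL-DHX15-LEC replicate 3, against at least 15.7% in each wild-type library (mean 17.0%). The gene was little expressed, so that these shares stand for 0 to 13.2 normalized counts in siL-DHX15-LEC and 32.0 to 36.1 in wild-type LEC (log2 ratio -4.61 ± 0.89, a value that depends on the count of 1 added to each). Slc2a9-004 passed the minimum for testing through the wild-type libraries alone, so no p-value is given for it. The share call was kept in only 1 of the 8 fits with a library left out, without siL-DHX15-LEC replicate 3.

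Mettl5-002 (chr2:69871214-69885597), from the gene for the adenosine methyltransferase of 18S ribosomal RNA, skips 83 bases and held 11.0, 13.8, 8.70 and 11.0% in siL-DHX15-LEC, against 19.0, 20.1, 27.4 and 20.4% in wild-type LEC (log2 ratio -1.15 ± 0.21, adjusted p = 0.0290). B4galt2-004 (chr4:117869260-117883155), from a galactosyltransferase gene, held 17.5, 16.9, 19.1 and 18.7% in siL-DHX15-LEC and 26.8, 27.0, 23.7 and 26.3% in wild-type LEC (log2 ratio -0.67 ± 0.09, adjusted p = 0.0117). Both isoforms fell in level too, without overlap and with no call for the gene total. Both share exon positions with other genes on the same strand (Gm13625 for Mettl5-002, and Ccdc24 for B4galt2-004). B4galt2-004 keeps the stop codon of the most abundant coding isoform and has 6 junctions after it.

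Cbx1-003 (chr11:96789137-96808149) is an NMD isoform that makes up most of its gene, which encodes the heterochromatin protein HP1 beta. It held 66.0, 63.4, 65.7 and 66.7% in siL-DHX15-LEC and 72.9, 72.7, 73.9 and 72.0% in wild-type LEC, narrow ranges that did not touch (log2 ratio -0.50 ± 0.06, adjusted p = 0.00745, called in all 8 fits with a library left out). The coding isoform Cbx1-001 was higher, at 3397 normalized counts in siL-DHX15-LEC and 2628 in wild-type LEC (adjusted p = 0.00651). Cbx1-003 ends at the stop codon of a coding isoform of the gene, though not of the most abundant one, and 1 junction follows it. The gene total was 10678 normalized counts in siL-DHX15-LEC and 10706 in wild-type LEC, and was not called (adjusted p = 0.949).

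Zgpat-006 (chr2:181365423-181383628) belongs to a gene whose product is a G-patch protein that binds DHX15. It held 32.5, 32.2, 30.4 and 32.4% in siL-DHX15-LEC, against 42.5, 36.4, 38.3 and 39.4% in wild-type LEC (log2 ratio -0.46 ± 0.09, adjusted p = 0.0392, kept in 1 of 8 fits with a library left out). The coding isoform Zgpat-002 was higher at 1534 normalized counts in siL-DHX15-LEC and 1308 in wild-type LEC (adjusted p = 0.0345). Usp3-003, from the gene for a histone H2A deubiquitinase, fell to 15.2% in siL-DHX15-LEC, against 21.1% in wild-type LEC, in a gene whose total was higher (log2 0.31, adjusted p = 0.000213). Tbc1d24-005 held 1.39 to 5.00% in siL-DHX15-LEC and 7.28 to 10.8% in wild-type LEC (log2 ratio -1.91 ± 0.39, adjusted p = 0.0429). Zgpat-006 and Tbc1d24-005 share exon positions with other genes on the same strand (Lime1 and Ntn3). Zgpat-006 also keeps the stop codon of the most abundant coding isoform, with 5 junctions after it.

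The other large falls were those of Dclk2-005 (12.5 to 16.8% in siL-DHX15-LEC and 20.2 to 24.1% in wild-type LEC), Gm21992-004 (3.07 to 5.97% in siL-DHX15-LEC and 8.50 to 11.4% in wild-type LEC) and Enpp5-003 (11.2 to 13.5% in siL-DHX15-LEC and 16.7 to 19.4% in wild-type LEC). Gm21992 is a gene model that shares exons with Rbm4 and Rbm14, so its counts depend on how reads were divided among the 3. Of the 10 largest falls 2, Cbx1-003 and B4galt2-004, were called in all 8 fits with a library left out, 2, Dclk2-005 and Enpp5-003, in none (adjusted p 0.0519 to 0.122 and 0.0576 to 0.0924), and the other 6 in 1 each.

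**Figure D4:**
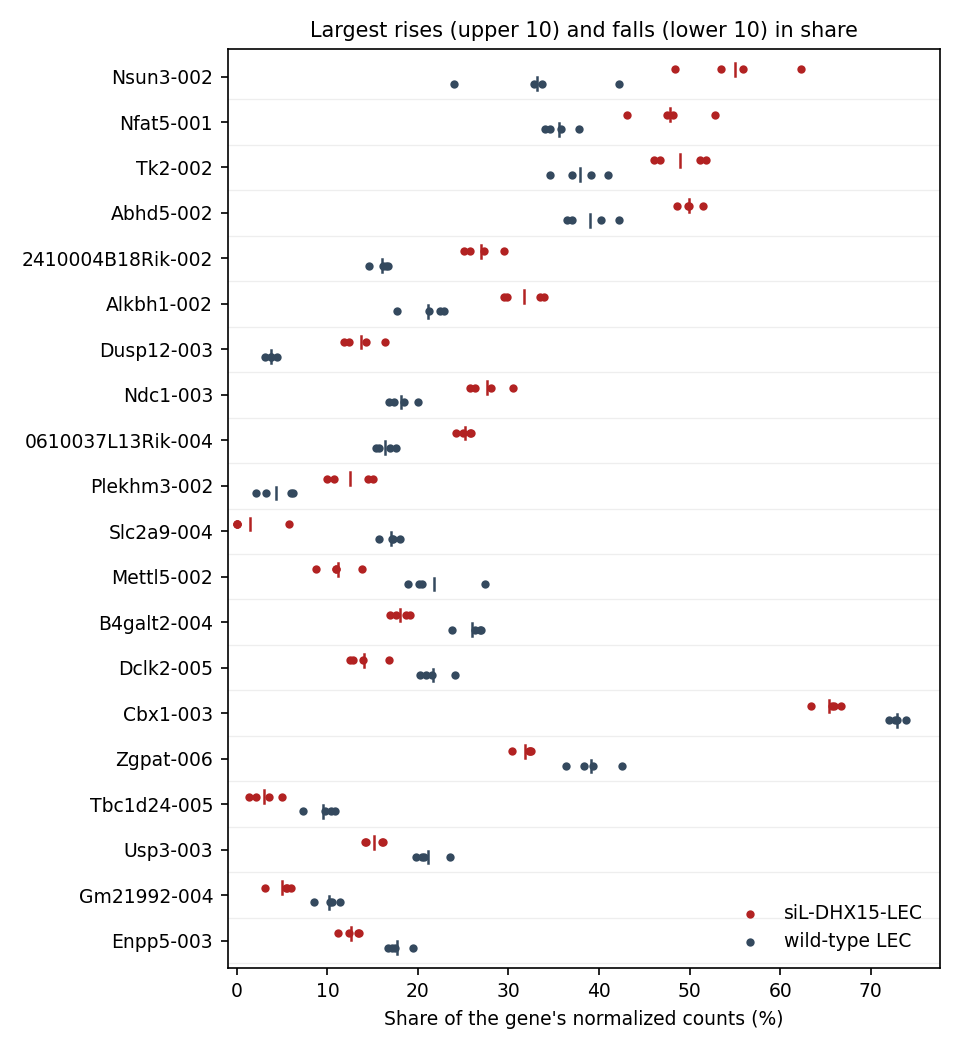
Share of the gene's normalized counts (%) held by the 10 NMD isoforms with the largest rise and the 10 with the largest fall in share, 1 point per library and a tick at the mean, siL-DHX15-LEC above wild-type LEC in each line. These isoforms were chosen for not overlapping between conditions, and Nsun3-002 (48.4 to 62.3% against 24.0 to 42.2%) and Slc2a9-004 (0 to 5.82% against at least 15.7%) are the extremes.

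The 5 NMD isoforms with the highest level were Lars2-004, Rpsa-002, Ppia-005, Rpl12-002 and Hnrnpu-005, of which Hnrnpu-005 is described with the hnRNPs. Lars2-004, from the gene for mitochondrial leucyl-tRNA synthetase, had 217876 to 248979 normalized counts in siL-DHX15-LEC and 157920 to 292244 in wild-type LEC, and held 97.0% of its gene in siL-DHX15-LEC and 96.9% in wild-type LEC (adjusted p = 0.990 for the share). Rpsa-002 and Rpl12-002, of ribosomal protein genes, were higher in level (log2 0.24, adjusted p = 0.00767, and log2 0.45, adjusted p = 0.00143) along with their gene totals (log2 0.23 and 0.40). Their shares were not called, at 66.3 and 38.6% in siL-DHX15-LEC and 65.7 and 37.4% in wild-type LEC. Ppia-005, of the cyclophilin A gene, was called in neither measure (67.9% in siL-DHX15-LEC and 67.4% in wild-type LEC). Ribosomal protein genes and Ppia have many near-identical processed copies, so the division of reads among copies and isoforms is uncertain for them. An isoform with a premature stop codon listed at most of its gene, as for Lars2, Rpsa and Ppia, is an estimate of RSEM from reads that several isoforms could have given.

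In level, the largest rises after Ndc1-002 were those of Man2a2-011 (log2 5.17), Gid4-002 (log2 2.60, adjusted p = 0.0131), Dusp12-003 and Plekhm3-002 (log2 1.57, adjusted p = 0.0259). Man2a2-011, from an alpha-mannosidase gene, had 365, 127, 85.1 and 60.5 normalized counts in siL-DHX15-LEC and 17.5, 0, 0 and 6.92 in wild-type LEC. All silenced libraries were higher, although it stayed a minor product of its gene (1.23% in siL-DHX15-LEC and 0.0578% in wild-type LEC). Man2a2-011 passed the minimum for testing through the silenced libraries alone, so no p-value is given for it. The largest falls in level were those of Clk1-004 (log2 -2.27, adjusted p = 0.0227), Mus81-002 (log2 -2.16, adjusted p = 0.0126), Tbc1d24-005 (log2 -2.03, adjusted p = 0.0102), Dhx15-004 and Trim39-004 (log2 -1.17, adjusted p = 0.0406). With a library left out, the level call was kept in 1 of the 8 fits for Trim39-004 (adjusted p 0.0161 to 0.101), in 4 for Plekhm3-002 and in 6 for Clk1-004. It was kept in all 8 for Ndc1-002, Gid4-002, Dusp12-003, Mus81-002, Tbc1d24-005 and Dhx15-004. For the reason given above, no such count is given for Man2a2-011. Clk1 encodes a kinase of SR proteins and is known for an isoform that skips an exon and is predicted to be decayed. Clk1-004, which skips 91 bases, had 18.7, 89.2, 110 and 55.8 normalized counts in siL-DHX15-LEC and 256, 277, 391 and 214 in wild-type LEC. All silenced libraries were lower, but its share of 1.63% in siL-DHX15-LEC and 6.55% in wild-type LEC did not pass the share test (adjusted p = 0.0620).

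Dhx15-004 (chr5:52150693-52190377), the NMD isoform of the silenced gene, had 1635, 1095, 1561 and 1896 normalized counts in siL-DHX15-LEC and 4463, 4814, 5905 and 4495 in wild-type LEC (log2 -1.69, adjusted p = 0.00111). The gene total fell alike (log2 -1.61) and so did the coding isoform Dhx15-001 (log2 -1.64). The share of Dhx15-004 was 18.3, 13.8, 17.5 and 18.9% in siL-DHX15-LEC and 16.6, 17.2, 22.3 and 16.1% in wild-type LEC, with wide overlap (log2 ratio -0.09 ± 0.17, adjusted p = 0.814).

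In the SR proteins, which bind exonic enhancers, 12 NMD isoforms of 10 genes were tested, 3 were higher and 0 lower (limma, with 5 higher and 0 lower at an unadjusted p under 0.05, and 1 higher and 0 lower by diffSplice). Over all NMD isoforms 2.40% were called higher and 0.593% lower in share, and over all isoforms 1.79% and 1.77%. At an unadjusted p under 0.05 (limma), 393 of the 3205 NMD isoforms were higher and 162 lower, and of all 43706 isoforms 3862 and 4179. The median log2 ratio of the 12 was 0.14, beside 0.07 for all NMD isoforms. Of the 13 gene totals of this list 1 was higher and 5 lower, with a median log2 of -0.19, beside -0.01 for all genes. Over all gene totals 18.4% were higher and 14.8% lower.

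Srsf3-002 (chr17:29032632-29042897) carries the 456-base exon shown above. It held 32.5, 28.3, 26.0 and 26.5% of Srsf3 in siL-DHX15-LEC, against 20.8, 21.2, 20.4 and 20.7% in wild-type LEC, and the highest share was in the smallest library. The log2 ratio was 0.59 ± 0.10 (adjusted p = 0.0232), the level of Srsf3-002 did not pass (log2 0.18, adjusted p = 0.0831), and the coding isoform Srsf3-001 had 11556, 13030, 14231 and 15597 normalized counts in siL-DHX15-LEC, against 19325, 17040, 17608 and 20027 in wild-type LEC (log2 -0.45, adjusted p = 0.0177). The gene total was lower as well (log2 -0.26, adjusted p = 0.00672). The call was kept in 3 of 8 fits with a library left out (adjusted p 0.0170 to 0.0691).

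Srsf6-002 (chr2:162931562-162935026), with a 268-base exon, held 31.2, 31.3, 30.2 and 30.6% in siL-DHX15-LEC and 25.5, 26.3, 28.3 and 26.0% in wild-type LEC (log2 ratio 0.30 ± 0.06, adjusted p = 0.0328). Here too the coding isoform, Srsf6-001, was lower (log2 -0.25, adjusted p = 0.0301), and the gene total was not called. Srsf11-008 was a minor isoform, at a mean of 1.44% in siL-DHX15-LEC and 0.751% in wild-type LEC, without overlap (log2 ratio 0.93 ± 0.19, adjusted p = 0.0394). Srsf6-002 and Srsf11-008 were each called in 1 of the 8 fits with a library left out.

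In the hnRNPs and related RNA-binding proteins, 44 NMD isoforms of 16 genes were tested, 3 were higher and 0 lower (limma, with 14 higher and 1 lower at an unadjusted p under 0.05, and 3 higher and 0 lower by diffSplice). Over all NMD isoforms 2.40% were called higher and 0.593% lower in share, with 393 and 162 of 3205 at an unadjusted p under 0.05 (limma). The median log2 ratio of the 44 was 0.16, beside 0.07 for all NMD isoforms. Syncrip-005 (chr9:88453938-88482149), from the gene for hnRNP Q, skips a 160-base exon and held 22.6, 23.0, 23.5 and 21.7% in siL-DHX15-LEC and 18.5, 17.7, 19.1 and 17.7% in wild-type LEC (log2 ratio 0.39 ± 0.06, adjusted p = 0.0134, called in all 8 fits with a library left out). Its level did not pass, and the gene total was lower (log2 -0.26, adjusted p = 0.0184). Rbm39-025 (chr2:156147940-156180184), with the 72-base exon printed above, held 6.62, 7.16, 7.51 and 8.70% in siL-DHX15-LEC and 4.79, 4.67, 5.30 and 4.74% in wild-type LEC (log2 ratio 0.66 ± 0.10, adjusted p = 0.0180, kept in 4 of the 8 fits, adjusted p 0.0260 to 0.0605). Hnrnpu-005, an NMD isoform listed at most of its gene, held 73.7, 73.9, 74.0 and 73.2% in siL-DHX15-LEC and 71.7, 70.7, 70.4 and 70.8% in wild-type LEC, a small rise with little spread (log2 ratio 0.20 ± 0.04, adjusted p = 0.0272, kept in 2 of the 8 fits, adjusted p 0.0394 to 0.0809).

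Of 34 NMD isoforms in the spliceosome list, 2 were higher and 1 lower (limma, with 5 higher and 5 lower at an unadjusted p under 0.05, 1 and 3 by diffSplice, and 2 and 2 on the arcsine scale). Snrpb-002, with a 124-base exon in the gene for the Sm proteins B and B′, held 1.23, 0.819, 0.701 and 0.740% in siL-DHX15-LEC and 0.403, 0.458, 0.405 and 0.530% in wild-type LEC (log2 ratio 0.93 ± 0.20, adjusted p = 0.0472, kept in none of the 8 fits with a library left out, adjusted p 0.0571 to 0.118). Bcas2-005, of a subunit of the PRP19 complex, held 12.5 to 13.3% in siL-DHX15-LEC and 9.04 to 10.6% in wild-type LEC (log2 ratio 0.44 ± 0.08, adjusted p = 0.0278, kept in 1 of the 8 fits, adjusted p 0.0420 to 0.0838). Luc7l2-007, of a U1-associated protein gene, was the one that fell, to 2.84 to 3.60% in siL-DHX15-LEC, against 4.02 to 5.03% in wild-type LEC (log2 ratio -0.57 ± 0.11, adjusted p = 0.0385). The call was kept in 2 of the 8 fits (adjusted p 0.0466 to 0.105), and under diffSplice the change was 0.11 and did not pass. The median log2 ratio over the 34 was -0.09, beside 0.07 for all NMD isoforms. Called in share over all NMD isoforms were 2.40% higher and 0.593% lower, with 393 and 162 of 3205 at an unadjusted p under 0.05 (limma).

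**Figure D5:**
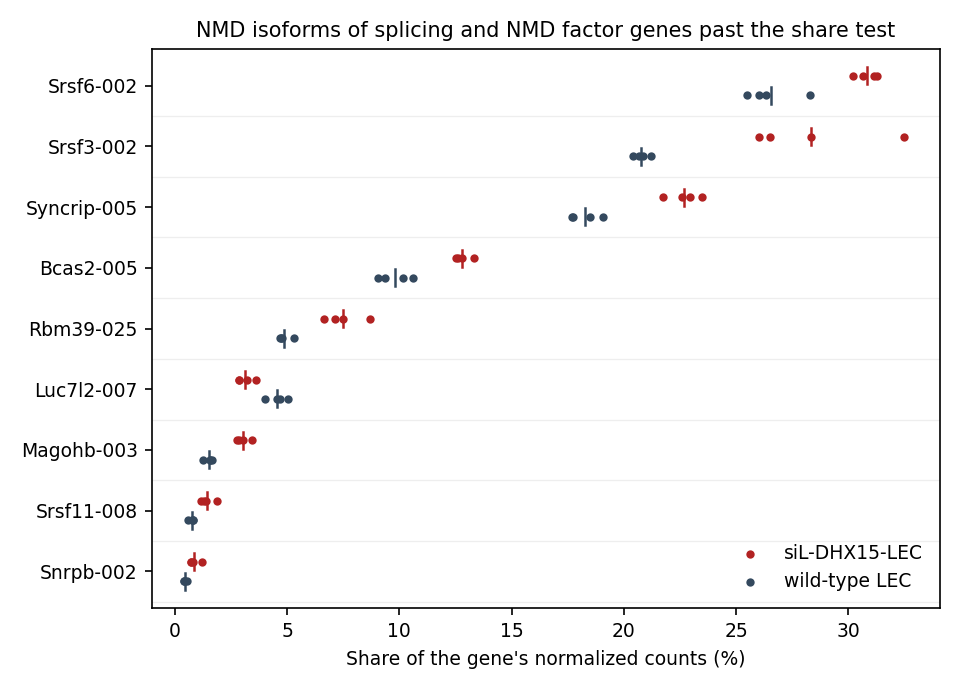
Share of the gene's normalized counts (%) held by 9 NMD isoforms of SR protein, hnRNP, NMD and spliceosome genes past the share test, 1 point per library and a tick at the mean, siL-DHX15-LEC above wild-type LEC in each line (Hnrnpu-005, at 73.7% against 70.9%, is left off the axis). In 8 of them, from Srsf6-002 (30.8% against 26.5%) to Snrpb-002 (0.871% against 0.449%), the silenced libraries lie to the right, and in Luc7l2-007 to the left.

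Genes of the NMD pathway were called in both directions. Of 26 gene totals for NMD factors 7 were higher, 7 lower and 12 not called, with a median log2 of -0.01, beside 18.4% higher and 14.8% lower over all gene totals. Upf3b (log2 -0.50, adjusted p = 0.00289), which links the exon junction complex to UPF1 and UPF2, and Smg5 (log2 -0.19, adjusted p = 0.00634), an adaptor of decay, were lower. The endonuclease gene Smg6 (log2 0.17, adjusted p = 0.00699) and Smg9 (log2 0.18, adjusted p = 0.00438) were higher. The largest change in the list was the fall of Dcp2 (limma, log2 -0.59, adjusted p = 0.000333), and Xrn1 was lower as well (log2 -0.32, adjusted p = 0.0212). The largest rise was that of Pnrc2 (log2 0.25, adjusted p = 0.00560). The helicase gene Upf1 did not pass, at 18215 normalized counts in siL-DHX15-LEC and 19663 in wild-type LEC (log2 -0.11, adjusted p = 0.0514). In this list 4 NMD isoforms were tested for share and 1 was higher, beside 2.40% of all NMD isoforms. At an unadjusted p under 0.05 there were 2 higher and 0 lower, and by diffSplice 0 higher and 0 lower. Over all NMD isoforms 393 of 3205 were higher and 162 lower at an unadjusted p under 0.05 (limma). The isoform called was Magohb-003, with a 200-base exon in a gene for the exon junction complex. It held 2.88, 2.77, 3.43 and 3.03% in siL-DHX15-LEC and 1.56, 1.27, 1.64 and 1.56% in wild-type LEC (log2 ratio 1.02 ± 0.14, adjusted p = 0.0126, called in all 8 fits with a library left out), while the gene total was lower (log2 -0.22, adjusted p = 0.0231).

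Transcripts that NMD is known to degrade for other reasons than a premature stop codon in an alternative isoform were listed too, although none of them has an isoform with the NMD label in the table. Of 9 such genes, 6 totals were higher and 1 lower, beside 18.4% and 14.8% of all gene totals. Zfas1 (log2 0.30, adjusted p = 0.000419) and Snhg12 (log2 0.43, adjusted p = 0.00126), which carry small nucleolar RNAs in their introns and only short reading frames in their spliced exons, were higher, while Gas5 (11413 normalized counts in siL-DHX15-LEC and 10982 in wild-type LEC) and Snhg1 (5610 in siL-DHX15-LEC and 5438 in wild-type LEC) were not called. Ddit3 (log2 0.91, adjusted p = 8.24e-05), Gadd45a (log2 1.09, adjusted p = 0.000273), Atf3 (log2 0.74, adjusted p = 0.000536) and Atf4 (log2 0.39, adjusted p = 0.000200), which stress pathways also induce, were higher, and Gadd45b was lower (log2 -0.46, adjusted p = 0.000562).

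For complex I, the respiratory enzyme whose subunit Ndufs1 the study followed, no NMD isoform was called. Of the 7 tested 0 were higher and 0 lower in share (limma, with 0 higher and 1 lower at an unadjusted p under 0.05, and 0 by diffSplice) or in level (2 higher and 0 lower at an unadjusted p under 0.05, 0 by edgeR and 0 by DESeq2). Over all NMD isoforms 2.40% were higher and 0.593% lower in share, and 6.27% and 1.42% in level. At an unadjusted p under 0.05 (limma), 393 of 3205 were higher and 162 lower in share, and 506 and 208 of 3238 in level. Ndufs1-012, the NMD isoform of Ndufs1, was listed at 1.77 normalized counts in siL-DHX15-LEC replicate 2, at 1.03 in wild-type LEC replicate 1 and at 0 in the other 6 libraries. Ndufa10-004 held 19.2 to 22.0% in siL-DHX15-LEC and 19.1 to 20.5% in wild-type LEC, Ndufa3-006 held 22.5 to 25.3% in siL-DHX15-LEC and 22.7 to 26.1% in wild-type LEC, and both overlapped (adjusted p = 0.723 and 0.819). Ndufa7-006 held 4.11 to 5.04% in siL-DHX15-LEC and 5.65 to 6.10% in wild-type LEC, without overlap and without passing the test (adjusted p = 0.0780).

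Among the tested isoforms 3 were listed at 0 in all 4 wild-type libraries and above 0 in all 4 silenced libraries, and 0 the other way round. They were picked out after their values were seen. No such count over all isoforms is given here, so the 3 and the 0 cannot be set against the rest of the table. Depdc5-005 (a subunit of the GATOR1 regulator of mTORC1) had 96.8, 77.7, 28.1 and 88.9 normalized counts in siL-DHX15-LEC, Wdr11-004 had 104, 34.5, 50.9 and 42.6, and Fbxl4-004 (a mitochondrial F-box protein gene) had 15.3, 67.1, 9.65 and 32.2. Each was a minor product, at 1.26, 0.963 and 2.04% of its gene in siL-DHX15-LEC, and none of the 3 gene totals was called. They passed the minimum for testing through the silenced libraries alone, so no p-value is given for them. All 3 are nonetheless counted among the 77 isoforms of higher share and the 203 of higher level. So is Man2a2-011, which passed the minimum in the same way. Slc2a9-004, which passed it through the wild-type libraries alone, is counted among the 19 of lower share and the 46 of lower level. How many of the isoforms in these counts passed the minimum through 1 condition alone is not given here. Fbxl4-004 is also among the 26 with a separate additional exon. Depdc5-005 and Wdr11-004 are among the 23 rises called in all 8 fits with a library left out. Depdc5-005 skips 3 exons of 340 bases in all, Wdr11-004 skips 1 of 101 bases, and Fbxl4-004 includes an additional exon of 113 bases. A value of 0 here is an estimate of RSEM and does not show that the isoform was absent.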

How the data were processed

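Poly-A RNA of 8 libraries (500 ng of total RNA, stranded, pairs of 76 bases) had been aligned by the authors to GRCm38 with STAR 2.5.2a, quantified by isoform on GENCODE M12 with RSEM 1.2.28 and normalized with size factors of DESeq2 1.18. The deposited values are thus a signal, normalized counts per isoform, with reads shared by isoforms divided by a model. Alignment statistics in percent, made by the sequencing center, were deposited with them and served only to describe the libraries. All values were whole multiples of 1 step per library (within 0.1 of a step for 100% of them), which gave back whole reads for edgeR and DESeq2. The reads assigned to isoforms numbered 77335734 to 152045693 a library, so precision is lowest for rare isoforms.

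Isoforms that averaged 10 normalized counts or more were tested with limma 3.58.1 (R 4.3.3, two-sided, variance trend) on log2(normalized count + 1), and for share on log2((isoform + 1)/(other isoforms of the gene + 1)), with at least 10 in the other isoforms. Benjamini-Hochberg adjustment ran over the whole table, at 0.05. A fold change on this scale understates the change of low isoforms. Gene totals were tested alike. Both fits were tested on simulated data. Alternatives were pseudocounts of 0.5 and 5, no filter, a mean of at least 50, no trend, rescaling (TMM or equal totals), a threshold of 0.001, each library left out, edgeR 4.0.16, DESeq2 1.42.0, diffSplice, the arcsine square root of the share, a change of at least 5 points, and 3 other ways to sum shares (isoforms over the minimum only, genes weighted equally, the 10 genes of highest NMD level left out). Structures and positions came from GENCODE M21 on the same build, matched by transcript ID.

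The isoforms, gene lists and rules were chosen with earlier results of these data known. Named isoforms are the 10 largest rises and 10 largest falls in share (past the test, gene mean of at least 100, no overlap), the 5 with the highest level, the 5 largest rises and 5 largest falls in level (past the test, mean of at least 50, no overlap), up to 4 past the share test from each of the lists of SR proteins, hnRNPs, NMD machinery and spliceosome, and those of Dhx15, Ndufs1 and 3 complex I genes, 45 in all. Sequences are those of the first 8, by largest share changes and then lists, whose stop codon lies in a separate additional exon. Other isoforms or genes were named for a count or list they belong to, after their values were seen. The class relative to the most abundant coding isoform, and the split by separate exon, were added after seeing the data.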

Additional observations from a re-analysis of the deposited data

Results flagged for a closer look

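A library that stood far from the other 3 of its condition (Dixon's test on the gap to the nearest library) was looked for in 186 groups of 4 values, and chance alone gives about 1 in 20. It was found in 9. Slc2a9-004 was listed at 13.2 normalized counts and 5.82% of its gene in siL-DHX15-LEC replicate 3, and at 0 in the other 3 silenced libraries. Mettl5-002 held 27.4% in wild-type LEC replicate 3 and 19.0 to 20.4% in the other wild-type libraries, and Zgpat-006 held 30.4% in siL-DHX15-LEC replicate 3 and 32.2 to 32.5% in the other silenced libraries. Mus81-002 had 241 normalized counts in wild-type LEC replicate 4 and 127 to 143 in the other wild-type libraries. Ndufs1-012 was above 0 in 1 library of each condition, siL-DHX15-LEC replicate 2 (1.77 normalized counts, 0.0149% of the gene) and wild-type LEC replicate 1 (1.03 normalized counts, 0.00820%).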

How the results depend on the processing

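No paired analysis was possible because the labels give the conditions no shared replicate numbers. The counts of 203 higher and 46 lower in level, and of 77 higher and 19 lower in share, moved by over 1.5 times as follows. Without the variance trend there were 112 higher in level and 32 higher and 5 lower in share, and at an adjusted p of 0.001 there were 7 higher and 0 lower in level and 2 higher and 0 lower in share. The 2 in share were Depdc5-005 and Wdr11-004, which passed the minimum for testing through the silenced libraries alone. DESeq2 gave 83 lower in level and rescaling to equal totals gave 77. A lower share was called for 29 isoforms with the arcsine square root, 46 with diffSplice and 32 with a mean of at least 50, and a change of at least 5 percentage points left 23 higher and 10 lower. Leaving out each library gave 123 to 193 higher and 21 to 62 lower in level, 28 to 51 higher and 3 to 12 lower in share, and a summed share difference of 0.280 to 0.448 percentage points. Both share counts moved by over 1.5 times without any 1 of the 8 libraries. The count of higher levels did so without siL-DHX15-LEC replicate 1, 2 or 3 (125, 131 and 128) or wild-type LEC replicate 3 or 4 (133 and 123), and that of lower levels without wild-type LEC replicate 3 or 4 (21 and 23). The 26 isoforms of higher share with a separate additional exon were 11 without the trend and 9 to 20 with a library left out (alternatives chosen after seeing the data). All other alternatives left these counts within 1.5 times.

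Signs turned only for values that passed no test, but for Ndc1-003 and Luc7l2-007 in share under diffSplice (-1.34 and 0.11). Lars2-004 in level was -0.031 by DESeq2, -0.032 by edgeR, -0.054 with equal totals and -0.16 to 0.14 with a library left out. With equal totals Ppia-005 was -0.016 and Syncrip-005 -0.0089. In share, Lars2-004 was 0.00093 with the arcsine square root and -0.19 to 0.14 with a library left out, Rpsa-002 was -0.014 with diffSplice, and Dhx15-004 was -0.16 to 0.039 with a library left out. The causes were not tested. Rare isoforms are limited by depth, most so in siL-DHX15-LEC replicate 1, where 3744 NMD isoforms were above 0, against 3981 to 4127 in the other libraries.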
